A study of Mus musculus with 29 samples.

Results

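The genes described are the collagen genes other than type IV, chosen by name as every gene whose symbol is a collagen alpha chain (Col, a type number, the letter a and a chain number) without the 6 genes of type IV collagen. The rule found 38 genes among the 22779 gene IDs of the expression matrix, 1 of which (Col17a1) stood on 2 differing lines, of which the line with the higher mean was used. They were sorted into 11 fibrillar genes, 9 FACIT genes (collagens that sit on the surface of fibrils), 6 genes of the microfibrillar type VI, 4 genes of membrane collagens, 2 multiplexins, 3 short-chain network collagens, 1 anchoring fibril gene and 2 others. A filter on low values (at least 1 FPKM in at least 4 libraries) left 33 of the 38 for testing, and Col11a2, Col9a1, Col9a3, Col19a1 and Col22a1 were not tested. FPKM is a level per transcript length and sequencing depth, so that the levels of different genes may be set side by side.

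RNA was measured in the alveolar septa, the walls between the air spaces, which were dissected with a laser out of cryosections of untreated wild type C57BL/6 mouse lungs. The 29 libraries each came from a separate animal and covered 15 ages (E, embryonic day, P, postnatal day), 2 animals an age except P28 with 1. In comparisons of stage groups, p values measure the spread between animals of a group, which includes differences between the ages it joins. In a fit with a group for each of the 15 ages, used from E16.5 to E18.5, they measure the spread between animals of the same age. The 4 stage groups compared here were prenatal (E16.5 and E18.5, 4 libraries), postnatal saccular (8 libraries, the 4 ages from P0.5 to P2.5), early alveolar (8 libraries, P4 to P10) and late alveolar (9 libraries, P13.5 to P28). Large vessels and bronchi were avoided at cutting, and each library is a mix of all cells of the captured tissue. Markers of the conducting airway were nonetheless found. Their 4 genes (Scgb1a1, Scgb3a2, Foxj1 and Dnah5) summed to 164 to 1190 FPKM in the prenatal libraries and to 593 to 4845 in the saccular ones. The sums were 938 to 5621 in the early and 868 to 4841 in the late alveolar libraries. The part of airway tissue in the collagen values was not tested.

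Fibrillar collagens assemble from 3 chains into rope-like fibrils that give tissue its tensile strength, and type V collagen is held to start and limit the fibrils of types I and III. Type VI collagen forms beaded microfilaments near cell surfaces, the multiplexins lie in the basement membrane zone, and the membrane collagens span the cell membrane of epithelial, mesenchymal or nerve cells. In the developing lung, fibroblasts and myofibroblasts lay down these chains while secondary septa rise and the septal wall later thins.

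Total FPKM per library lay between 318176 and 457706, and 10114 to 13059 genes reached 1 FPKM. Read depth is unknown because the files hold no counts. Libraries P10 pup a, P19 pup d and P19 pup f stood apart, with 416, 578 and 242 of 8623 commonly expressed coding genes listed at 0, and 12, 15 and 12 of the 38 collagen genes were listed at 0 in them. In 14 of 29 libraries the levels of Xist and 4 Y-linked genes went against the sex on the label, and no comparison here uses sex. The 4 alveolar type 2 cell markers summed to at least 2157 FPKM in every library. The 5 heart muscle genes summed to 31.6 to 2068 FPKM in the prenatal libraries and to 20.7 to 388.5 in the saccular ones, highest in P0.5 pup e. They summed to 19.0 to 450.8 in the early alveolar libraries, highest in P5 pup b, and to 7.14 to 82.2 in the late ones. P5 pup b also held the highest early alveolar values of Col1a1, Col1a2 and Col3a1, but not of Col5a1 and Col5a2. Fewer cells of a type and less RNA per cell cannot be told apart in such bulk samples.

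The promoters of 4 members with different courses over age are shown first, as examples of those courses: Col1a2 stands for the fibrillar chains that fell late, Col3a1 for the most abundant member, Col6a1 for the chain that peaked after birth, and Col25a1 for the gene that fell most. Each is the RefSeq sequence of GRCm38.p6, from 250 bases before to 50 bases after the start of transcription, written 5′ to 3′ in the direction of the gene. Capitals mark the CCAAT box, a binding motif of the factor NF-Y, on either strand (ATTGG where it lies on the other strand). Col1a2 lies at chr6:4505368-4505667 on the plus strand, Col3a1 at chr1:45311288-45311587 on the plus strand, Col6a1 at chr10:76725995-76726294 on the minus strand and Col25a1 at chr3:130180595-130180894 on the plus strand.
Col1a2: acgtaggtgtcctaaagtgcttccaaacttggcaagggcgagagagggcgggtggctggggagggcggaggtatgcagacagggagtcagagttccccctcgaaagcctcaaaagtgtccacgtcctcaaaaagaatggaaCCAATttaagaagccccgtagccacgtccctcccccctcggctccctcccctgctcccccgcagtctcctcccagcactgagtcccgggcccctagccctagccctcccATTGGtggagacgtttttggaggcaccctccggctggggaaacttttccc
Col3a1: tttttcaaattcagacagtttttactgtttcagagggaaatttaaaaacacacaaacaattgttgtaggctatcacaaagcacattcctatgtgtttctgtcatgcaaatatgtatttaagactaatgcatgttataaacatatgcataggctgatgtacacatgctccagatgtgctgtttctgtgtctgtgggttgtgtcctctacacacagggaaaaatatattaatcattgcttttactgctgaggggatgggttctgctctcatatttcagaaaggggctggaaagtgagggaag
Col6a1: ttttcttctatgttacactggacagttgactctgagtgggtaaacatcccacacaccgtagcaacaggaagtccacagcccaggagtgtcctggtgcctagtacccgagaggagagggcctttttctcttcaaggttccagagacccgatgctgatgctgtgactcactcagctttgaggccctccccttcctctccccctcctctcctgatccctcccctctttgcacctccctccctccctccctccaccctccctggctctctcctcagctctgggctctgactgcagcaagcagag
Col25a1: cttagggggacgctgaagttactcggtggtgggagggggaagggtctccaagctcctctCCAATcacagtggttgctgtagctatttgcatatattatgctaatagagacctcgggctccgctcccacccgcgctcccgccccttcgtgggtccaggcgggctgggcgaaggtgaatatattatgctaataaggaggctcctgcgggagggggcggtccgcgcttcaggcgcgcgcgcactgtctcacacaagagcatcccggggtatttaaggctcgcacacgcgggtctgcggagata

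The Col1a2 window held CCAAT at position -109 in the forward orientation and again at position 1 in the reverse one, counted from the start of transcription. Col25a1 held 1 CCAAT at -191, and the windows of Col3a1 and Col6a1 held none. The motif stood in 37.4% of all 32851 promoters of that length, and in those of 10 of the 30 members with a promoter. The TATA box (TATAAA) stood in 13.6% of all promoters and in those of 5 of the 30 members, the GC box (GGGCGG) in 35.7% and 18, and the Smad element (CAGAC) in 49.6% and 18, each counted on both strands. Some members have several promoters, 33 in all. Col1a1, Col2a1, Col5a2, Col9a3, Col12a1, Col14a1, Col22a1 and Col26a1 had no entry.

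In GENCODE M21 annotation of the same build, Col1a1 spans chr11:94936224-94953042 and Col1a2 chr6:4504814-4541544. Several members are close neighbours. Col3a1 (chr1:45311538-45349706) and Col5a2 (chr1:45374321-45503282) lie end to end on opposite strands with 24.6 kb between them. Col6a2 and Col6a1 lie 85.2 kb apart on chromosome 10, both on the minus strand, with Col18a1 326 kb beyond Col6a1, and Col6a6, Col6a5 and Col6a4 follow each other on chromosome 9 with gaps of 27.9 and 28.8 kb. Libraries were made with a stranded kit, but whether the strand was used in the quantification is not given in the sources used here, so the values of members that overlap a gene on the opposite strand, Col5a1, Col24a1, Col12a1, Col14a1, Col6a4, Col15a1, Col18a1 and Col10a1 among those tested, may hold reads of that gene.

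Among the 38 members, fibrillar genes carried the largest share of the summed level by group medians. Type IV genes are not part of that sum. Col4a1 alone had means of 289, 414, 475 and 460 FPKM in the prenatal, saccular, early and late alveolar groups. Summed over the 38 genes, the level had a median of 1090 FPKM in the prenatal group, 1097 in the postnatal saccular group, 1061 in the early alveolar group and 698 in the late alveolar group. The 11 fibrillar genes made up 50.8%, 47.3%, 62.5% and 54.9% of that sum by the group medians, and the type VI genes 31%, 37.6%, 26.9% and 34.8%. Of the 33 genes tested, 22 changed with age in limma's F test of a smooth curve over age, which called 30.7% of all 14616 genes tested.

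Between the early and late alveolar groups the main collagens of the fibrils fell together. Of 33 members tested, 12 were lower (7.47% of all genes were called lower) and 2 were higher (3.89% of all genes were called higher) at an adjusted p under 0.05. By class, 7 of 10 fibrillar genes tested, 3 of 5 FACIT genes, 1 of 4 membrane genes and 1 of 2 multiplexins were lower, while none of the 6 type VI genes passed in limma, with 2 of them lower and 0 higher at an unadjusted p under 0.05. The median log2 difference of the 33 members was -0.45, against -0.09 for all genes tested. Of all genes called in this comparison 34.2% were higher, against 43.4% after median ratio scaling and 46.2% after quantile normalization, under which 11 and 12 members were lower.

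Col1a1, which encodes the main chain of type I collagen, had 76.3 and 150.5 FPKM at E16.5 and 31.3 and 40.3 at E18.5. It ranged from 74.8 to 143 (median 96.7) in the saccular group, from 85.3 to 198 (median 133) in the early alveolar group and from 30.1 to 126 (median 59.6) in the late alveolar group. The early and late alveolar ranges overlapped only through the P13.5 library of pup c, at 126 FPKM, and all libraries from P15 on were below 85.3, the lowest early value. The late group was lower by a log2 difference of -1.21 ± 0.27 (SE), adjusted p = 0.0034.

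Col1a2 encodes the partner chain of type I collagen. Its prenatal levels were 125 and 146 FPKM at E16.5 and 51.4 and 77.4 at E18.5, and its later ranges were 82.2 to 142 (median 96.1), 116 to 218 (median 134) and 42.7 to 90.9 (median 68.2) FPKM in the saccular, early and late alveolar groups. The early and late alveolar libraries did not overlap. The difference was -1.12 ± 0.18 (SE), adjusted p = 8.39e-05, which is 0.459 of the early level on the log2(FPKM + 1) scale.

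Col3a1, the gene of type III collagen and the highest of all members, had 472 and 385 FPKM at E16.5 and 167 and 202 at E18.5. Saccular libraries held 152 to 288 (median 199.7) FPKM, early alveolar ones 231 to 500.0 (median 297) and late alveolar ones 122 to 314 (median 183). The alveolar groups overlapped, since both P13.5 libraries and both P15 libraries stood at 251 FPKM or more while the 5 older ones lay between 122 and 183. The late difference of -0.64 ± 0.21 (SE), adjusted p = 0.0499 was just under the threshold and was lost with most single libraries left out and without the 3 zero-rich libraries (adjusted p = 0.203).

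**Figure D1:**
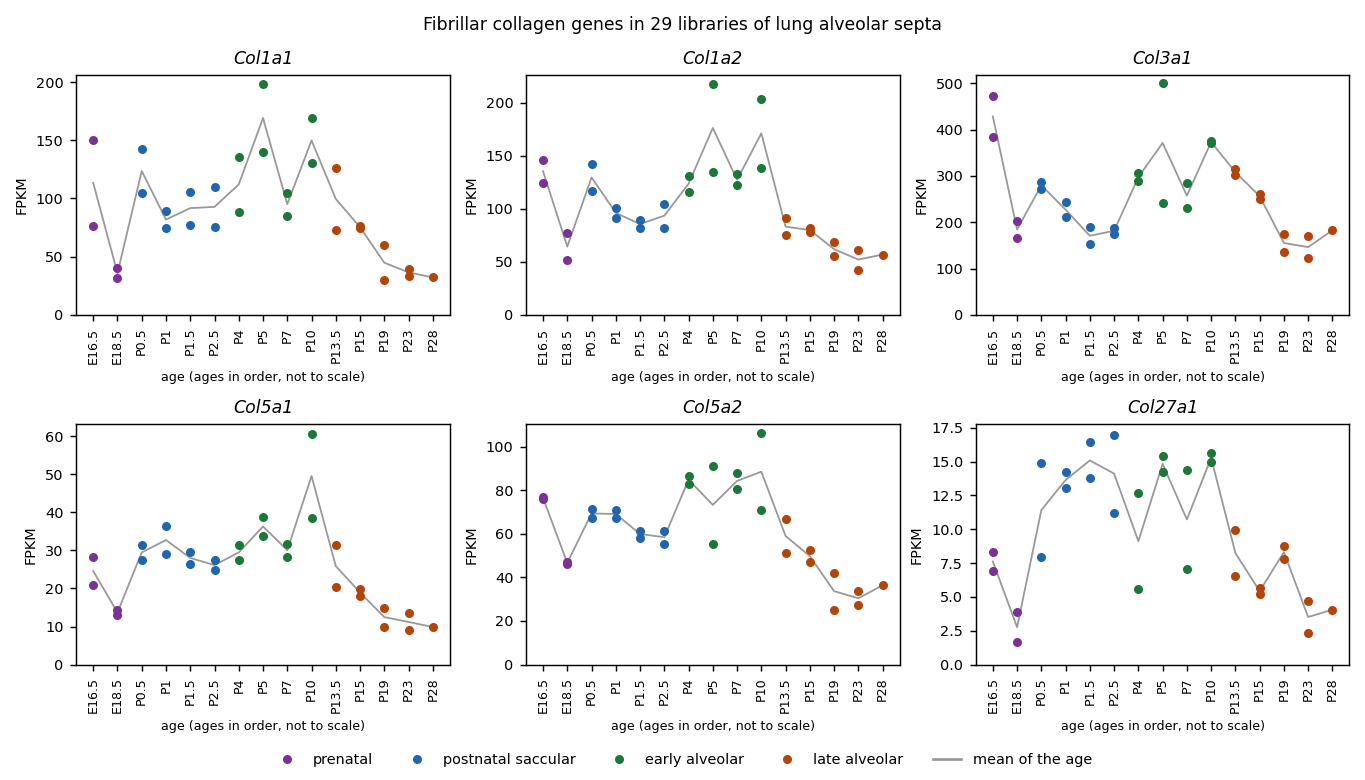
FPKM of 6 fibrillar genes in each of 29 libraries (points, coloured by stage group), with ages in order on the horizontal axis and a line through the mean of each age. Col1a1, Col1a2 and Col3a1 dipped at E18.5, and Col1a1, at 30.1 to 126 FPKM, overlapped the early alveolar range late only at P13.5.

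Type V chains fell as well. Col5a1 had 20.8 and 28.4 FPKM at E16.5 and 13.1 and 14.3 at E18.5, then 24.8 to 36.3 (median 28.3), 27.6 to 60.5 (median 32.7) and 8.98 to 31.4 (median 15) FPKM in the saccular, early and late alveolar groups. The alveolar groups overlapped through P13.5 pup c, and the late group differed by -1.17 ± 0.20 (SE), adjusted p = 0.000173. Col5a2, its partner chain, had 76.9 and 76 FPKM at E16.5, 47 and 46.3 at E18.5, and 55.5 to 71.3 (median 64.3), 55.4 to 106 (median 84.8) and 25.2 to 66.9 (median 42.1) in the later groups. A single early library, P5 pup e at 55.4 FPKM, lay within the late range, and the late difference was -0.99 ± 0.16 (SE), adjusted p = 0.000108. Col5a3, the third chain, stayed at or under 1.78 FPKM and passed no stage test.

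Of the rarer fibrillar genes, Col24a1 and Col27a1, which encode the shorter fibrillar types XXIV and XXVII, also fell. Col24a1 ranged from 2.56 to 5.03 (median 3.81) FPKM in the early alveolar group to 0 to 2.19 (median 0.177) in the late group, with no overlap and with 3 late libraries listed at 0. Its prenatal values were 2.98 and 2.62 at E16.5 and 2.16 and 2.68 at E18.5, and its saccular range was 1.26 to 4.92 (median 2.29). The late difference was -1.76 ± 0.24 (SE), adjusted p = 1.23e-05, the second largest fall among the members after that of Col25a1. Col27a1 had 6.89 and 8.36 FPKM at E16.5, 1.66 and 3.87 at E18.5, and 7.95 to 17 (median 14), 5.57 to 15.6 (median 14.3) and 2.3 to 9.95 (median 5.65) in the later groups. It was the 1 fibrillar gene that rose from the prenatal to the saccular group, by +1.36 ± 0.32 (SE), adjusted p = 0.00385, and it fell between the alveolar groups, by -0.93 ± 0.26 (SE), adjusted p = 0.015, with overlapping ranges in both comparisons.

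Members of the FACIT class fell with the fibrils late in alveolar growth. Col12a1, whose product binds type I fibrils, had 24.7 and 26.8 FPKM at E16.5 and 7.06 and 9.82 at E18.5, then 15.6 to 21.1 (median 18), 13.3 to 33 (median 17.5) and 6.67 to 16.4 (median 9.77). The alveolar ranges overlapped only through P19 pup d at 16.4 FPKM, 1 of the zero-rich libraries, and the late difference was -0.84 ± 0.22 (SE), adjusted p = 0.00986. Col16a1, a minor fibril-associated chain, had 6.4 and 9.24 FPKM at E16.5, 3.29 and 3.46 at E18.5, and 3.94 to 10.7 (median 8.77), 8.11 to 14.4 (median 11) and 2.05 to 5.7 (median 4.46) in turn. Its early and late alveolar libraries did not overlap, and the difference was -1.33 ± 0.22 (SE), adjusted p = 0.000106.

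Col14a1, which encodes a fibril-associated chain that marks matrix fibroblasts, fell at 2 separate steps. All 4 prenatal libraries were high, with 50.5 and 44 FPKM at E16.5 and 52.5 and 50.5 at E18.5. The saccular libraries ranged from 12.1 to 26.2 (median 15.5), with no overlap with the prenatal ones, and the difference was -1.52 ± 0.25 (SE), adjusted p = 9.58e-05. Early alveolar libraries stayed at that level, from 10.2 to 29.1 (median 14.7), and late ones lay at 4.92 to 16 (median 7.21), a further -0.96 ± 0.20 (SE), adjusted p = 0.00139. The alveolar ranges overlapped through P28 pup c at 16 FPKM, while the other 8 late libraries were all below 10.2, the lowest early value.

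**Figure D2:**
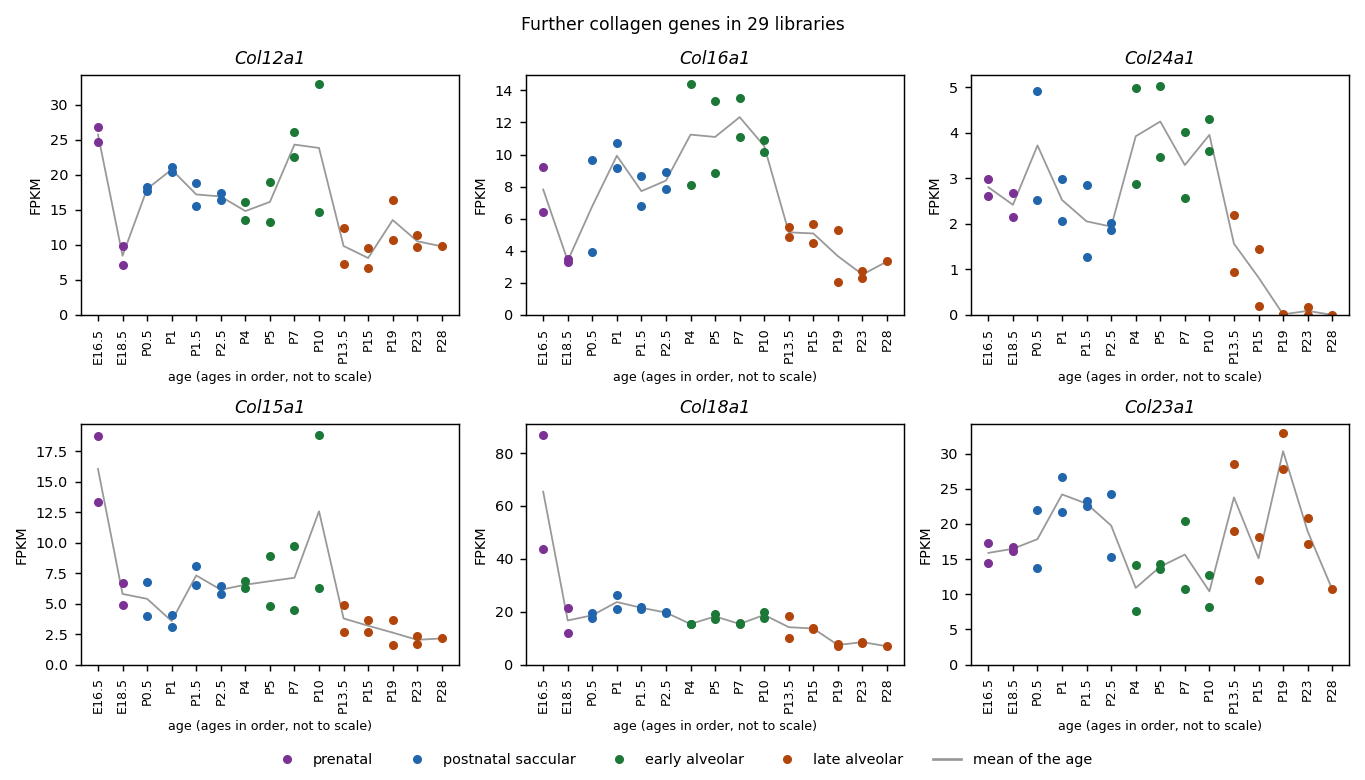
FPKM of Col12a1, Col16a1, Col24a1, Col15a1, Col18a1 and Col23a1 in each of 29 libraries (points, coloured by stage group), with a line through the mean of each age. Col24a1 and Col16a1 fell without overlap after P10, and Col18a1 was highest at E16.5, at 43.9 and 86.9 FPKM.

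The multiplexins, whose products carry the endostatin-like fragments, were also lowest late. Col15a1 had 13.4 and 18.7 FPKM at E16.5 and 4.86 and 6.73 at E18.5, and 3.07 to 8.09 (median 6.14), 4.48 to 18.8 (median 6.56) and 1.56 to 4.87 (median 2.7) in the later groups. The late range overlapped the early one in 1 library, P13.5 pup c, and the difference was -1.21 ± 0.26 (SE), adjusted p = 0.00249. Col18a1 had 43.9 and 86.9 FPKM at E16.5 and 12.1 and 21.3 at E18.5, then 17.6 to 26.4 (median 20.4), 15.2 to 19.9 (median 16.4) and 6.93 to 18.4 (median 8.67). Its late difference of -0.70 ± 0.24 (SE), adjusted p = 0.0503 missed the threshold by a narrow margin. Among the alternative fits it passed with a pseudocount of 0.1, a filter at 5 FPKM, array quality weights, the fit of 15 ages and only the 2 groups compared.

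When the alveolar stage was divided after P7 instead of after P10, 7 members were lower. Col1a1, Col3a1, Col5a1, Col12a1, Col15a1 and Col27a1 no longer passed, with adjusted p between 0.0936 and 0.342. Col6a4 was newly among the 7, at -0.93 (adjusted p = 0.0292, against 0.0953 with the division after P10). The share of all genes called with this division is not given here. Mean levels of Col1a1 went from 149.9 FPKM at P10 to 99.6 at P13.5, 75.4 at P15 and 44.9 at P19, and the P10 value of pup a, 169, was exceeded by P5 pup b alone.

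Among the members, only Col23a1 and Col8a1 were called higher between the alveolar groups, joined after quantile normalization by the low FACIT gene Col20a1 (+0.67, adjusted p = 0.00959, against +0.45 and 0.181 on the deposited scale). Col23a1 encodes a membrane collagen and had 17.4 and 14.4 FPKM at E16.5 and 16.2 and 16.7 at E18.5, 13.7 to 26.6 (median 22.2) in the saccular group, 7.68 to 20.5 (median 13.1) in the early alveolar group and 10.7 to 32.9 (median 19) in the late one. Col8a1, a short-chain collagen known from vessel walls, had 1.67 and 2.48 FPKM at E16.5, 2.4 and 2.4 at E18.5, and 0 to 2.94 (median 0.987), 0 to 1.63 (median 0.625) and 0.631 to 6.43 (median 2.33) thereafter. Both groups of ranges overlapped, and the highest late value of both genes came from P19 pup d, 1 of the 3 zero-rich libraries. The differences were +0.64 ± 0.20 (SE), adjusted p = 0.033 for Col23a1 and +1.03 ± 0.29 (SE), adjusted p = 0.0168 for Col8a1. Without the 3 zero-rich libraries neither passed, with adjusted p of 0.221 and 0.0953, and Col23a1 was also lost without any 1 of P4 pup e, P7 pup d, P10 pup a, P13.5 pup c, P19 pup d, P19 pup f or P23 pup e (adjusted p 0.0509 to 0.081).

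Col25a1 showed the largest late fall of any member. It encodes a membrane collagen best known from neurons and from the motor innervation of muscle. Prenatal libraries had 14 and 13 FPKM at E16.5 and 23.3 and 16.3 at E18.5, saccular libraries 3.95 to 9.38 (median 5.5), early alveolar libraries 2.37 to 11.6 (median 7.08), and late libraries 0 to 0.745 (median 0.128) with 4 of 9 listed at 0. Neither the prenatal and saccular groups nor the early and late alveolar groups overlapped. The differences were -1.33 ± 0.31 (SE), adjusted p = 0.00307 after birth and -2.53 ± 0.24 (SE), adjusted p = 3.93e-08 late, and the late fall held in every alternative fit run, while the call after birth was lost with a pseudocount of 0.1 (-1.47, adjusted p = 0.0977). The P10 libraries, at 2.37 and 3.46 FPKM, were already the lowest of the early alveolar group.

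**Figure D3:**
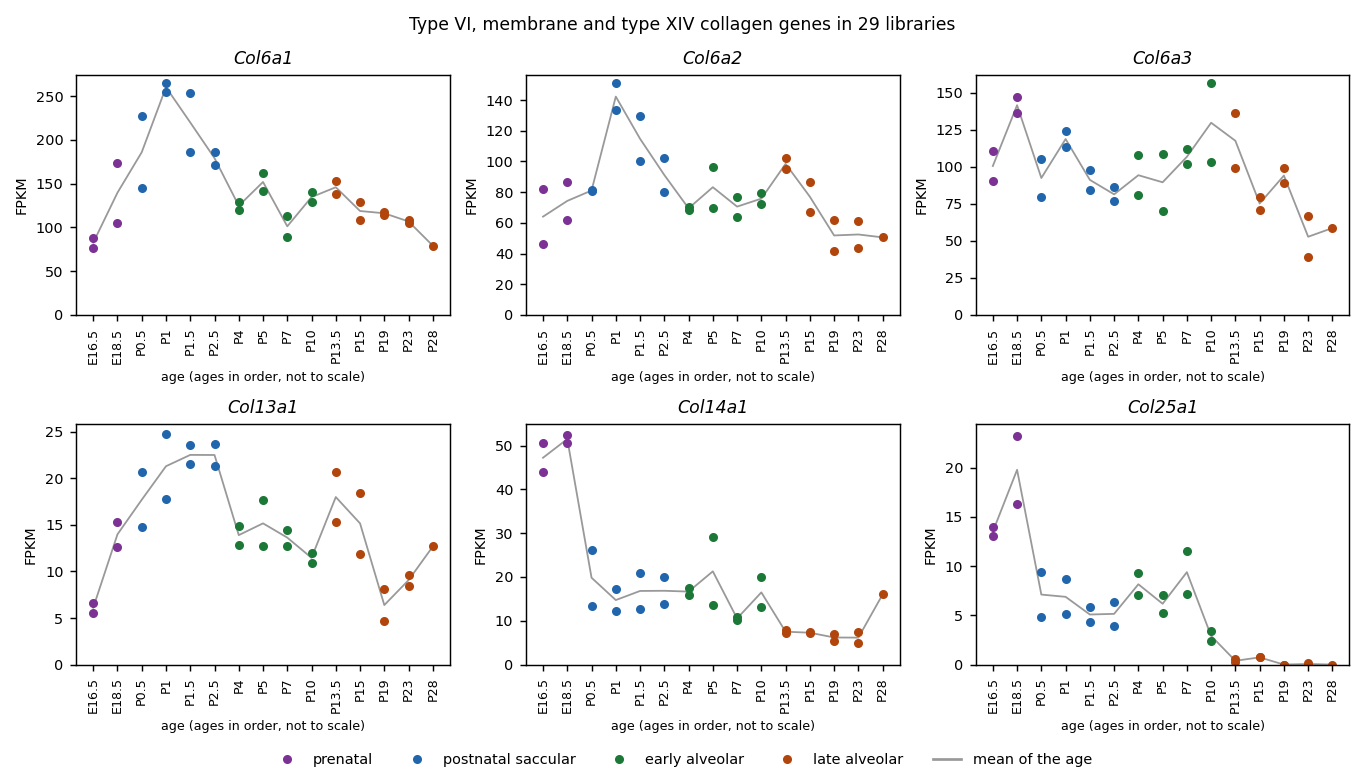
FPKM of Col6a1, Col6a2, Col6a3, Col13a1, Col14a1 and Col25a1 in each of 29 libraries (points, coloured by stage group), with a line through the mean of each age. Col6a1 and Col6a2 peaked at P1, Col14a1 dropped between E18.5 and P0.5, and Col25a1 was at or near 0 FPKM from P13.5 on.

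Around birth the members moved in both directions. A difference at or after birth is one between the prenatal group, which also holds E16.5, and the postnatal saccular group. From the prenatal to the postnatal saccular group 5 of 33 members were higher (9.11% of all genes were called higher) and 5 were lower (6.81% of all genes). The higher ones were Col6a1, Col6a2, Col13a1, Col27a1 and Col7a1, and the lower ones Col14a1, Col25a1, Col11a1, Col2a1 and Col6a6. The median difference of the members was -0.32, against -0.004 for all genes.

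The first 2 chains of type VI collagen rose after birth, while the third passed no stage test. Col6a1 had 88.3 and 76.6 FPKM at E16.5 and 105 and 174 at E18.5, and 145 to 265 (median 207) in the saccular group. It then ranged from 89 to 163 (median 129) FPKM in the early and from 79 to 153 (median 114) in the late alveolar group. The rise at birth was +0.96 ± 0.20 (SE), adjusted p = 0.00103, with overlapping ranges, and the later fall, from saccular to early alveolar libraries, was -0.71 ± 0.16 (SE), adjusted p = 0.0217. By age the mean went from 82.5 FPKM at E16.5 to 139.6 at E18.5, 185.8 at P0.5 and 260.0 at P1, and back to 124.7 at P4.

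Col6a2, whose chain pairs with that of Col6a1, had 46.3 and 81.8 FPKM at E16.5 and 62.2 and 86.4 at E18.5, then 80.4 to 151 (median 101), 64 to 96.6 (median 71.2) and 41.8 to 102 (median 61.8) FPKM. Its rise of +0.63 ± 0.22 (SE), adjusted p = 0.0489 was close to the threshold and was lost in 5 of the alternative fits and with many single libraries left out, for example E16.5 embryo 9 (adjusted p = 0.245). Col6a3 encodes the long chain that joins the other two. It had 90.4 and 111 FPKM at E16.5 and 147 and 136 at E18.5, and 76.8 to 124 (median 92), 70.3 to 156 (median 105) and 39.1 to 136 (median 79.6) later, and passed no stage test, with -0.33 ± 0.23 (SE) at birth (adjusted p = 0.363).

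Membrane collagen Col13a1, found at cell-matrix and nerve-muscle contacts, was 6.62 and 5.59 FPKM at E16.5 and 12.7 and 15.3 at E18.5, and 14.7 to 24.8 (median 21.4) in the saccular group, where P0.5 pup f alone fell within the prenatal range. Later it ranged from 10.9 to 17.6 (median 12.8) and from 4.64 to 20.7 (median 11.9) FPKM. It rose by +1.08 ± 0.27 (SE), adjusted p = 0.00591 at birth and differed within the prenatal group by +1.08 ± 0.30 (SE), adjusted p = 0.0473 from E16.5 to E18.5. That call was lost without any 1 of the 4 prenatal libraries (adjusted p 0.103 to 0.284) and with each of 14 later libraries left out (adjusted p 0.0533 to 0.0639). Col7a1, the gene of the anchoring fibrils under epithelia, was low throughout, with 0.428 and 0.086 FPKM at E16.5 and 0 and 0.221 at E18.5 against 0.603 to 2.14 (median 1.26) in the saccular group. Its ranges did not overlap and the difference was +0.89 ± 0.28 (SE), adjusted p = 0.0284. Later it held 0.306 to 2.07 (median 1.12) and 0.0153 to 1.99 (median 0.53) FPKM, and the call at birth was lost after quantile normalization (adjusted p = 0.131) and without E16.5 embryo 2, E18.5 embryo 4 or P1.5 pup d (adjusted p 0.0786, 0.0856 and 0.0521).

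Col17a1, a hemidesmosome collagen of epithelial cells and the fourth membrane member, varied widely between animals of 1 age. It had 2.47 and 1.51 FPKM at E16.5, 11.7 and 8.72 at E18.5, 3.14 to 15.8 (median 10.2) in the saccular group, 2.16 to 8.17 (median 4.77) in the early alveolar group and 1.06 to 8.27 (median 4.55) in the late one. No stage comparison of this gene passed, and at P1.5 the 2 pups differed from 3.14 to 15.3 FPKM.

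Among the cartilage collagens of types II, IX and XI, Col2a1, Col11a1, Col9a1, Col9a2 and Col9a3 had their highest mean at E16.5, while Col11a2 did not, with 0.777 FPKM at E16.5, 0.927 at P1.5 and 0.960 in the P28 library. Col2a1, the main fibril gene of cartilage, had 2.6 and 6.86 FPKM at E16.5 and 0 and 0.47 at E18.5, and was listed at 0 in 4 of 8 saccular libraries, in 3 of 8 early and in 4 of 9 late alveolar ones, with highest values of 1.03, 1.3 and 1.38 FPKM. Col11a1, its fibril partner, had 7.69 and 4.9 FPKM at E16.5 and 0.898 and 1.31 at E18.5, then 0.214 to 1.84 (median 0.561), 0 to 0.875 (median 0.268) and 0 to 0.306 (median 0). The differences from the whole prenatal group to the saccular group were -1.14 ± 0.37 (SE), adjusted p = 0.0333 for Col2a1 and -1.23 ± 0.31 (SE), adjusted p = 0.00607 for Col11a1, with overlapping ranges. From E18.5 alone to the saccular group they were -0.0766 (adjusted p = 0.939) and -0.346 (adjusted p = 0.582).

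Col9a1, Col9a2 and Col9a3 encode the chains of the cartilage FACIT type IX. Their E16.5 values were 2.47 and 1.89, 5.41 and 1.06 and 1.19 and 1.17 FPKM, Col9a1 was listed at 0 in 24 of the 25 postnatal libraries, and the only one tested, Col9a2, passed the age test (adjusted p = 0.0119). Type VI chain Col6a6 had 7.79 and 14.4 FPKM at E16.5 and 1.04 and 0.297 at E18.5, then 0.157 to 2.53 (median 0.493), 0 to 1.1 (median 0.727) and 0 to 1 (median 0). Its difference from the whole prenatal group to the saccular group was -1.39 ± 0.43 (SE), adjusted p = 0.0254, and from E18.5 alone it was +0.0239. In the comparison of the prenatal with the saccular group, Col2a1, Col11a1 and Col6a6 were no longer called without E16.5 embryo 9 (adjusted p 0.136, 0.0738 and 0.154). Leaving out E16.5 embryo 2 ended the calls of Col2a1 and Col6a6 (adjusted p 0.289 and 0.23).

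Of the cartilage markers, Acan, Matn3 and Cytl1 were highest at E16.5 like these genes, while Hapln1 was as high at E18.5. Comp and Snorc went another way, with their highest values at P1.5. Of 7 marker genes in the files, summed, the prenatal libraries held 27.3 to 47.0 FPKM, the saccular ones 6.32 to 20.1 and the late alveolar ones 1.44 to 8.63, most of it from Hapln1 in the prenatal and saccular libraries, and only 2 of the 7 could be tested. Acan and Matn3, which define cartilage cells, stood at 1.18 and 2.38 FPKM and at 1.97 and 1.44 FPKM at E16.5, and at 0.157 and 0 and at 0 and 0 at E18.5. Cytl1 stood at 15.5 and 11.5 FPKM at E16.5 and at 0 and 2.48 at E18.5, and Hapln1 at 28.0 and 23.1 and at 31.3 and 24.8. Matn1 was listed at 0 in every library except E16.5 embryo 2, at 0.215 FPKM, and Snorc in every library except P1.5 pup e, at 5.59 FPKM. Comp stood at 0.326 and 0 FPKM at E16.5 and was highest in P1.5 pup d, at 0.743 FPKM. The part of tracheal or bronchial cartilage in these values was not tested.

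Within the prenatal group, several members were lower at E18.5. Compared with E16.5, 8 of 33 were lower (2% of all genes were called lower) and 1, Col13a1, was higher (2.52% of all genes). The 8 were Col1a1, Col1a2, Col2a1, Col3a1, Col11a1, Col12a1, Col6a6 and Col18a1, with log2 differences from -1.09 to -2.84, and the median of the 33 members was -0.70 against -0.10 for all genes. Each age had 2 embryos. Col1a1 differed by -1.57 ± 0.36 (SE), adjusted p = 0.0154, Col3a1 by -1.21 ± 0.27 (SE), adjusted p = 0.0112 and Col6a6 by -2.84 ± 0.49 (SE), adjusted p = 0.00156.

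These calls rest on few animals. Without E18.5 embryo 4, 2 of the 8 were left, without E16.5 embryo 2, 3, and without E16.5 embryo 9, 4. Col6a6 alone kept its call in every fit with 1 library left out, though not with a pseudocount of 0.1 (adjusted p = 0.0832). Summed FPKM of 5 heart muscle markers were 995 and 2068 at E16.5 and 31.6 and 102.4 at E18.5, and 3 of the 5 were called lower (2% of all genes were). Of 5 alveolar type 1 markers, 4 were called higher (2.52% of all genes were). The part of other tissue and of a changed cell mix in the collagen values was not tested.

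Because the prenatal group joins 2 unlike ages, the comparison at birth was repeated with E18.5 alone. Against the 2 E18.5 embryos, Col1a1, Col5a1, Col12a1 and Col27a1 were higher in the saccular group and Col14a1 and Col25a1 lower, with Col1a1 at +1.40 (adjusted p = 0.0261) and Col5a1 at +1.03 (adjusted p = 0.0445). The share of all genes called in this repeat is not given here. Its calls are therefore not read as a result about the members as a set. In that comparison Col6a1, Col6a2, Col13a1 and Col7a1 were not called (adjusted p 0.135, 0.329, 0.367 and 0.123), nor were Col2a1, Col11a1 and Col6a6. The comparisons share the E18.5 libraries. Col27a1, Col14a1 and Col25a1 passed in both, and E16.5 alone was not tested.

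**Figure D4:**
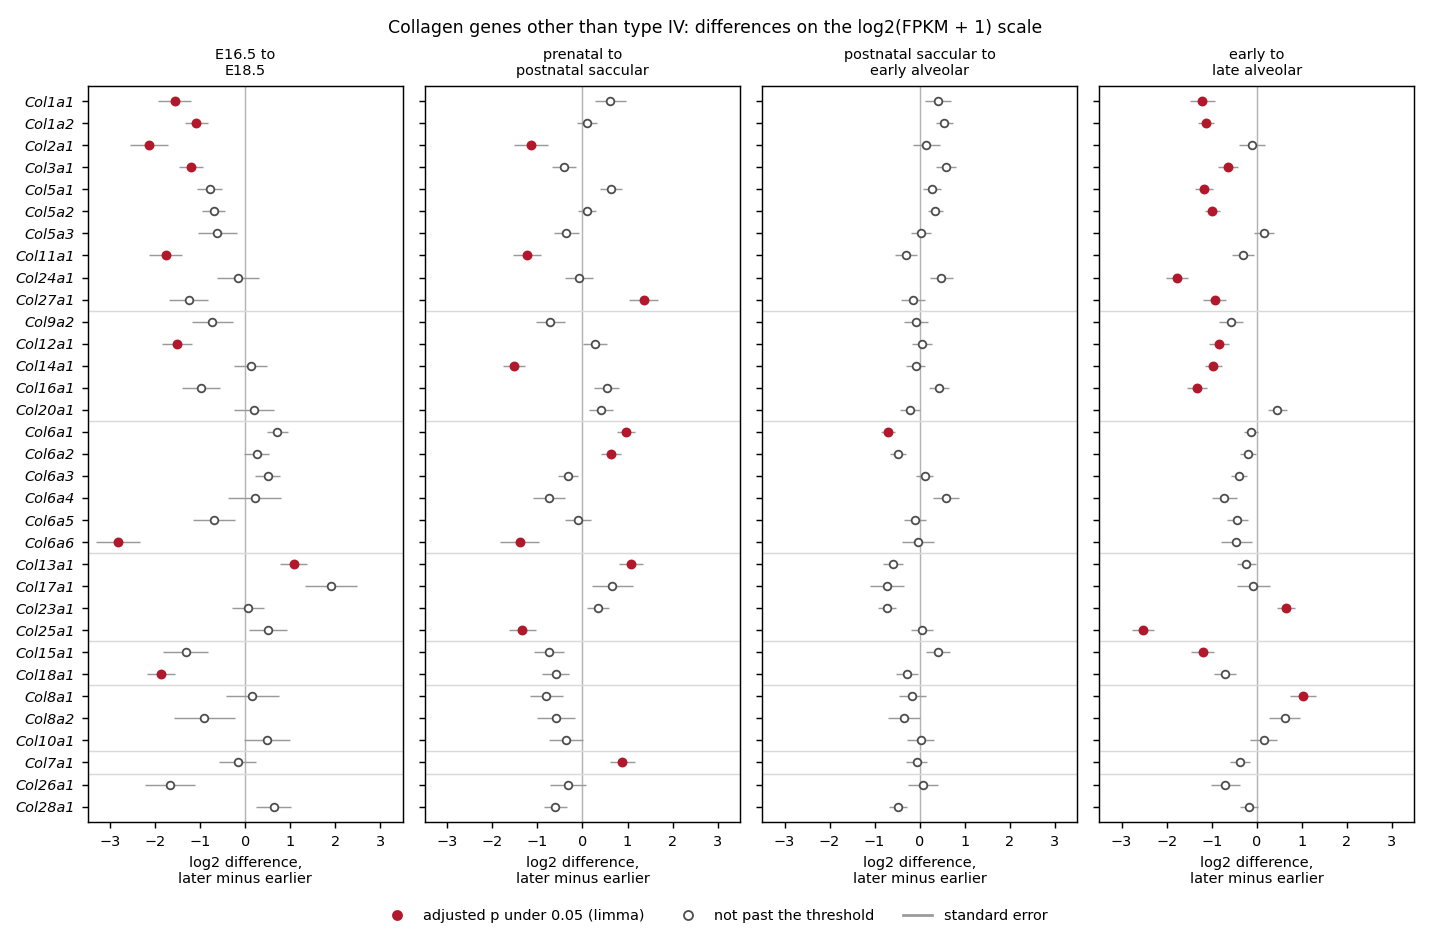
Differences on the log2(FPKM + 1) scale, later minus earlier, of the 33 tested members in 4 comparisons, with standard errors from limma. Filled points passed an adjusted p of 0.05, and grey lines part the classes. All 10 fibrillar genes stand left of 0 from E16.5 to E18.5, as do all but Col5a3 from early to late alveolar libraries.

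Between saccular and early alveolar libraries 1 member was called. None of 33 was called higher by limma (0.527% of all genes were), although 3 were higher at an unadjusted p under 0.05, and 1, Col6a1, was lower (0.937% of all genes). That call was lost without P1 pup d, P1 pup e or P1.5 pup e (adjusted p 0.0531, 0.0505 and 0.0551). Values for the largest fibrillar members were +0.55 ± 0.18 (SE) for Col1a2 (adjusted p = 0.143) and +0.58 ± 0.22 (SE) for Col3a1 (adjusted p = 0.206). Both passed in the fit of 15 ages (adjusted p 0.0223 and 0.0175), as did Col13a1 and Col23a1 in the other direction.

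Ratios between chains were taken within each library. For 11 pairs of chains and 3 stage comparisons, 33 in all, the mean log2 ratio of FPKM + 1 was compared with an exact two-sided permutation test over libraries, and 7 passed after adjustment. The ratio of Col1a1 to Col1a2, the chains of the same type I molecule, passed at no step. Its median was 0.611 prenatally, 0.959 in the saccular group, 0.885 in the early and 0.874 in the late alveolar group.

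Type III collagen went from high to low and up again relative to type I. The 4 prenatal libraries had Col3a1 to Col1a1 ratios of 2.56 to 6.19 (median 5.17), the saccular ones 1.44 to 3.26 (median 2.35), the early alveolar ones 1.73 to 3.46 (median 2.37) and the late ones 2.39 to 5.68 (median 3.65). The ranges of neighbouring groups overlapped. The log2 ratio fell by 1.03 at birth (exact permutation p = 0.00606, adjusted p = 0.0286) and rose by 0.57 from early to late alveolar libraries (exact permutation p = 0.00547, adjusted p = 0.0286). The late rise missed the threshold without the 3 zero-rich libraries, at +0.56 with an adjusted p of 0.0673, and the fall at birth without E16.5 embryo 9 or either E18.5 embryo (adjusted p 0.0889, 0.075 and 0.075).

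Among type VI chains the balance moved away from Col6a3 after birth and back again. The ratio of Col6a3 to Col6a1 was 0.785 to 1.45 prenatally (median 1.21) and 0.352 to 0.727 in the saccular group (median 0.451), with no overlap. Early alveolar libraries had 0.498 to 1.21 (median 0.816) and late ones 0.374 to 0.889 (median 0.716). The log2 differences were -1.29 at birth (exact permutation p = 0.00202, adjusted p = 0.0133) and +0.82 from saccular to early alveolar libraries (exact permutation p = 0.00171, adjusted p = 0.0133). The ratio of Col6a1 to Col6a2 did not pass at any step.

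The other 3 calls were at birth, each with groups that did not overlap and with an exact permutation p of 0.00202, the smallest that 4 against 8 libraries allow, and an adjusted p of 0.0133. Col5a1 to Col5a2 went from 0.27 to 0.373 prenatally to 0.405 to 0.541 in the saccular group. Col14a1 to Col12a1 went from 1.64 to 7.43 to a range of 0.574 to 1.48, and Col13a1 to Col14a1 from 0.127 to 0.304 to a range of 0.788 to 2.05, a log2 difference of +2.60. Both of these ratios hold Col14a1, itself called lower at birth, where Col13a1 was called higher. They are thus not independent of each other or of those calls. With E18.5 alone standing for the prenatal libraries, the smallest p that 2 against 8 libraries allow is 0.0222, and no ratio passed.

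**Figure D5:**
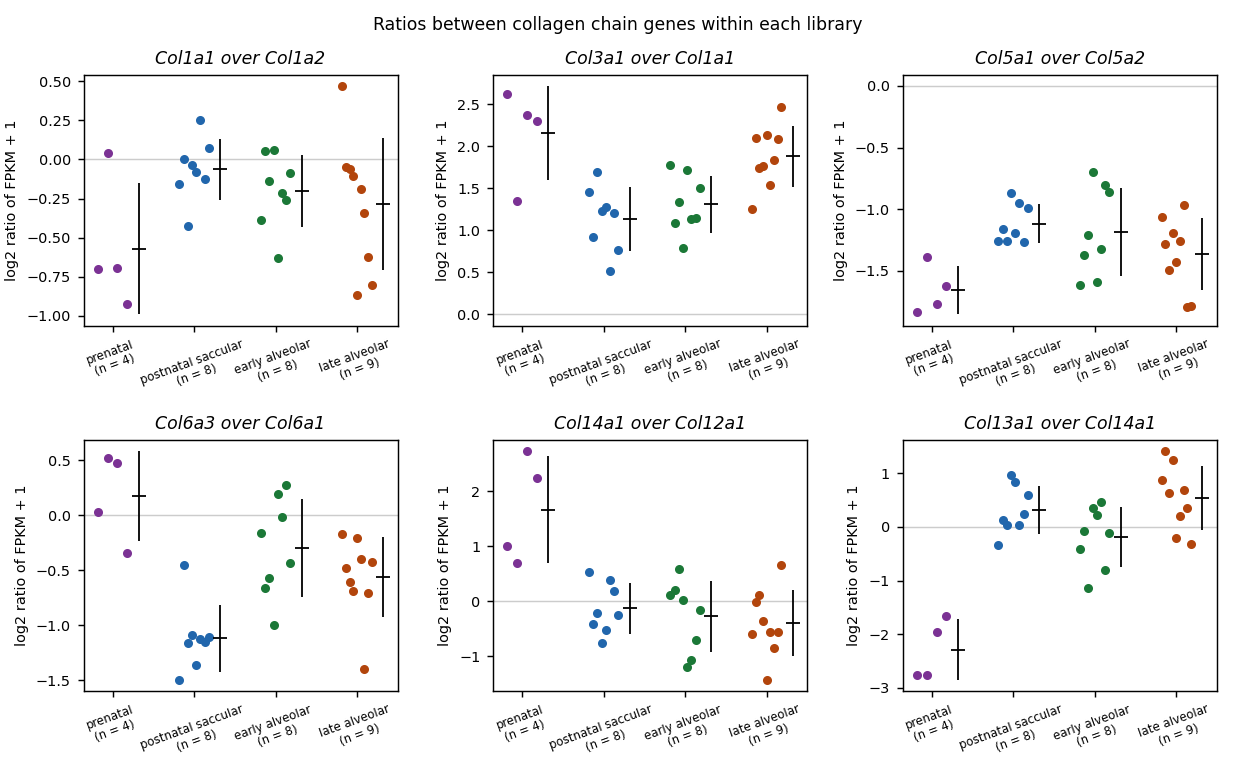
Log2 ratios of FPKM + 1 between pairs of collagen chain genes in each library by stage group (points), with the mean and standard deviation beside each group as a black mark and bar. The ratio of Col13a1 to Col14a1 was lower in all 4 prenatal libraries than in any later one, while that of Col1a1 to Col1a2 spread around 0 in the saccular group.

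The remaining members were low. In 19 of the 38 no stage group reached a mean of 5 FPKM, and the highest single values among those not yet given were 5.87 FPKM for Col6a4 (P7 pup c), 5.80 for Col26a1 (P7 pup c), 5.10 for Col8a2 (P13.5 pup c), 4.35 for Col10a1 (P1.5 pup d), 3.25 for Col28a1 (E18.5 embryo 4), 2.66 for Col6a5 (P7 pup c), 1.76 for Col20a1, 1.70 for Col11a2, 0.873 for Col22a1 and 0.209 for Col19a1. None of those tested passed a stage test in the first limma fit, before any alternative. Col28a1 passed the age test (adjusted p = 0.00107), from 1.91 and 0.72 FPKM at E16.5 and 3.25 and 1.83 at E18.5 to 0 to 0.594 in the late group. Col10a1, a marker of hypertrophic cartilage, showed no high value at E16.5, with 1.56 and 1.65 FPKM.

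Genes that modify, secrete, trim, bind or take up collagen were read beside the chains. Of 37 such genes in the files, 36 were tested (P3h1, P3h2, P3h3, P3h4 and Colgalt1 were not analysed here), and from early to late alveolar libraries 8 were lower and 1 higher (7.47% and 3.89% of all genes), with a median difference of -0.26, against -0.09 for all genes. Of 10 prolyl hydroxylases and chaperones, 5 were lower: P4ha3 (-2.36 ± 0.49 SE, adjusted p = 0.00169), Fkbp10 (-1.10 ± 0.17, adjusted p = 5.7e-05), Crtap (-1.01 ± 0.23, adjusted p = 0.00316), Serpinh1, the collagen chaperone HSP47 (-0.75 ± 0.16, adjusted p = 0.00227), and Fkbp7 (-1.32 ± 0.43, adjusted p = 0.042). Bmp1, which trims the propeptide of procollagen, fell by 0.85 on the log2 scale, while Pcolce2, an enhancer of that step, rose from a mean of 15.1 to 47.7 FPKM (+1.58 ± 0.27, adjusted p = 0.000225). Mrc2, an uptake receptor for collagen, and Creb3l2, a regulator of the secretory path, were the other genes called lower.

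At birth 3 of the 36 were higher (Mrc2, Adamts2 and Creb3l2, where 9.11% of all genes were) and 2 were lower (Plod2 and P4ha1, hydroxylases of lysine and proline, where 6.81% of all genes were), which is near the share over all genes. After the saccular stage the collagen receptors Ddr2 and Itga1 were higher. Type IV collagen, left out of the members by the rule, went another way. Of its 6 genes, 4 were higher at birth (9.11% of all genes), among them Col4a3 at +2.62 ± 0.39 SE (adjusted p = 3.22e-05). From E16.5 to E18.5, 3 of the 6 were already higher (2.52% of all genes), with Col4a3 at +2.77 ± 0.24 SE (adjusted p = 6.4e-07). From early to late alveolar libraries 1 of 6 was higher and none lower.

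Contractile markers moved with the late fall. All 5 of Acta2, Myh11, Tagln, Cnn1 and Actg2 were lower in the late alveolar group, where 7.47% of all genes were called lower. Their summed FPKM went from 284.4 to 597.7 in the early group (median 452) to 119.3 to 224.6 in the late group (median 149.6). Lung fibroblast markers moved in both directions, with 3 of 5 higher (Inmt, Npnt and Pdgfra, where 3.89% of all genes were) and 1 lower (Tcf21). The part of a change in the share of contractile cells in the collagen values was not tested.

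By likeness over the 29 libraries, the members lay at various distances from the mean of Col1a1, Col1a2 and Col3a1. Pearson's r with that mean was 0.837 for Col5a1, 0.836 for Col5a2, 0.802 for Col16a1 and 0.761 for Col24a1, but 0.119 for Col6a1, 0.12 for Col13a1, 0.304 for Col14a1, -0.41 for Col23a1 and -0.437 for Col8a1. Between neighbours in the genome, r was 0.73 for Col3a1 and Col5a2, 0.784 for Col6a1 and Col6a2 and 0.161 for Col6a1 and Col18a1. Outside the members, the 10 genes most like the mean were Rcn3 (r = 0.872), P4ha3 (0.871), Map1b, Dbn1, Islr, Lgr6, Gata5, Mfhas1, Ccdc80 and Dchs1 (0.808). All of these values are descriptions over libraries that each carry their own share of cell types and their own depth.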

How the data were processed

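Alveolar septa of 29 mice were captured by laser, and RNA depleted of ribosomal RNA was sequenced with a stranded kit. The submitters' processing notes name STAR 2.5.1, Cufflinks 2.2.1 and mm10, and the authors deposited FPKM values as 1 matrix of 24486 lines for 22779 gene IDs. Settings and annotation are not given in the sources used here. Where the lines of an ID differed (944 IDs), the one with the higher mean was kept. Symbols were found for 22718 IDs.

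Values were used as log2(FPKM + 1) for the 14616 genes that reached 1 FPKM in 4 or more libraries. One limma model (version 3.58.1, R 4.3.3, trended eBayes) held the 4 stage groups, and the step from E16.5 to E18.5 was taken from a model of 15 ages. For age, limma's F test used a natural spline (3 degrees of freedom) over the log2 of days from conception, with birth set at day 19. Adjusted p values are Benjamini-Hochberg over all genes tested, with a threshold of 0.05. Fold changes on this scale understate changes of low genes. Chain ratios were tested with an exact two-sided permutation test, adjusted over 33 tests. Other steps used Python 3.11.15 with numpy (2.4.6), pandas (2.3.3), scipy (1.17.1) and, for drawing, matplotlib (3.10.9), and the limma step was first tested on simulated data, in which 200 genes had known changes. Depth is unknown, so no interval for counting error is given.

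The members, their classes and the lists of pathway and marker genes were chosen with earlier results of these data known. Members with a mean of at least 5 FPKM in any stage group, or called in a stage comparison, are given with values, and the others are counted with their highest value. Genes outside the members were named as the 10 most correlated with the mean of Col1a1, Col1a2 and Col3a1, or from the lists. The alternatives changed the pseudocount (0.1), the filter (none, or 5 FPKM), the scaling (median ratio or quantile), the weights (array quality), the lines (summed), the model (15 ages, only the groups compared, for age a test over stages or postnatal libraries alone), the groups (E18.5 alone as prenatal, or a division after P7) and the libraries (the 3 zero-rich ones or any 1 of 29 left out). The marker Cnmd was not analysed here.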

Additional observations from a re-analysis of the deposited data

Results flagged for a closer look

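In 5 of 76 groups of 4 to 9 libraries, over the members with a mean of at least 5 FPKM in any group, 1 library lay far from the others of its stage group by Dixon's criterion, and chance flags about 1 in 20 groups. Col1a1 stood at 126.3 FPKM in P13.5 pup c, against 76.09 in the next late alveolar library. In the early alveolar group, P10 pup a stood at 60.53 FPKM for Col5a1, against 38.8 in the next library, and at 18.84 FPKM for Col15a1, against 9.761. P10 pup a is 1 of the 3 libraries rich in zeros, and both genes kept their late calls when those 3 were left out. Col14a1 was at 16.01 FPKM in P28 pup c, the only animal of its age, against 7.855 in the next late library. Col6a2 was at 96.6 FPKM in P5 pup b, against 79.45 in the next early alveolar library. The cause of these values was not tested.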

How the results depend on the processing

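No paired analysis was possible because the pup letters and embryo numbers name animals within an age and pair none across ages. Alternative values were taken for single members with an adjusted p under 0.25 in a comparison and for the chain ratios that passed. Many came from leaving out a library outside the comparison. Of 2681 such values, 2494 kept their direction and side of the threshold, and 137 lost and 48 gained significance. The other 2 reversed, both with E18.5 alone as prenatal: Col18a1 at +0.347 and Col6a6 at +0.0239 after birth. In that setting 2 members were lower after birth and 0 of 33 chain ratios passed, where 2 against 8 libraries cannot give an exact p under 0.0222. The 5 members lower after birth became 1 with a pseudocount of 0.1, 2 with a filter at 5 FPKM and 3 with only the 2 groups compared. From saccular to early alveolar libraries, the fit of 15 ages called 2 higher and 3 lower, array quality weights 3 lower, only the 2 groups compared 3 lower, and the division after P7 left 0 lower. The 2 members higher in the late alveolar group became 1 with a filter at 5 FPKM, with only the 2 groups compared and with the division after P7, and 0 without the 3 zero-rich libraries, and the 12 lower became 7 with the division after P7. Quantile normalization called 3 higher there. From E16.5 to E18.5, quantile normalization and array quality weights called 2 higher, and a pseudocount of 0.1 and a filter at 5 FPKM each called 5 lower. The causes were not tested, apart from the 18 members left by the filter at 5 FPKM.

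With 1 library left out at a time, the calls after birth ranged from 3 to 5 higher and from 2 to 6 lower (2 without E16.5 embryo 9, 3 higher without E18.5 embryo 4 or P1.5 pup d). They ranged from 0 to 0 higher and 0 to 2 lower between saccular and early alveolar libraries, 1 to 2 higher and 11 to 13 lower between early and late alveolar libraries, and 0 to 1 higher and 2 to 9 lower from E16.5 to E18.5. Calls for age ranged from 19 to 23, and chain ratios passing from 6 to 12 (12 without P5 pup e, 11 without P7 pup d or P19 pup d). Where 1 embryo was left at an age, it was assumed to vary like the other groups.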
